A study of Homo sapiens with 4 samples.

Results

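Cells with a raised share of mitochondrial RNA were described in cultures of microglia-like cells. These had been differentiated from H9, a widely used line of human embryonic stem cells. The high-share cells were those in which the 13 protein-coding genes of the mitochondrial genome (the MT- genes) gave over 10% and at most 20% of the cell's unique molecular identifiers (UMIs, counts of single captured RNA molecules). They numbered 5728 of 24305 cells of known culture with at least 1000 detected genes, or 23.6%. They were set against the 16937 low-share cells of the same cultures, at 10% or less, by the genes outside the mitochondrial genome. The other 1640 cells, over 20%, are used here for the trend with the share. The high-share cells were chosen by their measured MT share, so that the share itself and the MT- genes are given as a description with no test.

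Mitochondria keep a small genome of their own, whose transcripts are made and translated inside the organelle, while most mitochondrial proteins are encoded in the nucleus and imported. The respiratory chain and ATP synthase are built from both sets of genes. In single-cell work a high share of mitochondrial RNA is commonly used to set cells aside, since a cell that leaks cytoplasmic RNA can retain its mitochondria, although cell types also differ in mitochondrial content. The share is a ratio of RNA counts, so that more mitochondrial RNA and less RNA of other kinds cannot be told apart from it alone.

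The 12 cultures formed 4 conditions with 3 cultures each. SemaLPS cultures received semagacestat, an inhibitor of the membrane protease γ-secretase, at 2 µM for 22 h, and, over the final 6 h, bacterial lipopolysaccharide (LPS), a ligand of Toll-like receptor 4, at 200 ng/mL. LPS cultures received LPS with the vehicle DMSO, Sema cultures received semagacestat with the vehicle PBS, and Ctrl cultures received both vehicles. What the conditions shared was the H9 line, maturation with TGF-β, IL-34 and cholesterol, detachment in the presence of the transcription inhibitor actinomycin D, and staining of each culture with its own hashtag antibody before the cells were pooled into 2 droplet libraries. The study's design text calls the cultures biological replicates without saying whether they came from separate differentiations, so that p-values cover the spread among cultures of 1 line, which may be partly technical.

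The pool gave 28943 barcodes and 900761329 UMIs. The culture was read from the top hashtag, which had to reach 30 UMIs and 3 times the next one: 4114 barcodes (14.2%) failed the ratio and 167 the minimum. Library 1 held 2435 high-share cells and library 2 held 3293, and 4 of their barcode sequences were high-share cells in both libraries. A culture contributed 293 to 950 high-share and 1144 to 1979 low-share cells, with 7989624 to 25039123 and 31902980 to 55500632 UMIs outside the MT- genes. The 12 markers of microglia and macrophages summed to 15364 to 17532 CPM (UMIs scaled to a common total per culture and class, over genes outside the mitochondrial genome) in high-share cells and 14717 to 17290 CPM in low-share cells, so that both kinds of cells carried them. The sum was higher in high-share cells in 12 of 12 cultures, and APOE alone averaged 7865 CPM over both classes. By gene, in the test within culture given below, 4 markers were higher and 7 lower. Hemoglobin genes and the granulocyte, mast cell, megakaryocyte and B cell lists lay near 0 in both, at no more than 1.31 CPM summed in any culture.

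High-share cells continued the main distribution of the share upwards, and most lay close to the lower limit. The median share was 8.84% over the 24305 cells (quartiles 7.66 and 10.4%), 11.2% in high-share cells and 8.13% in low-share cells. Of the high-share cells, 4332 (75.6%) lay between 10 and 12.5%, 947 (16.5%) between 12.5 and 15%, 295 (5.15%) between 15 and 17.5%, and 154 (2.69%) above. Depth was close on both sides of the lower limit. The 2551 cells between 10 and 11% had a median of 29704 UMIs, and the 4041 cells between 9 and 10% had 30356. At the upper limit the 58 cells between 19 and 20% had a median of 13503.5 UMIs and the 35 cells between 20 and 21% had 15609.

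High-share cells held more MT- UMIs and fewer of other genes, a pattern that the rule itself favours. Over the 12 cultures, the median cell held 3147 ± 195 MT- UMIs among high-share cells and 2404 ± 98.3 among low-share cells (SD, n = 12 each). For the remaining genes the median cell held 24656 ± 1546 UMIs among high-share cells and 27590 ± 1514 among low-share cells. Within the high-share range the depth fell with the share, with a median of 29064.5 UMIs per cell at 10 to 12.5% and 15171 at 17.5 to 20%. Cells above the 95th percentile of UMIs in their library made up 1.91 ± 0.94% of high-share and 2.32 ± 0.837% of low-share cells per culture.

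The share of high-share cells was lower with LPS and showed no detectable difference with semagacestat. It was 16.9, 18.99 and 23.2% in the SemaLPS cultures, 16.0, 16.9 and 20.7% in the LPS cultures, 22.8, 29.5 and 30.1% in the Sema cultures, and 25.3, 28.4 and 30.5% in the Ctrl cultures. All 3 LPS cultures lay below all 3 Ctrl cultures, while SemaLPS-3 lay just above Sema-1. Culture number 1 was the lowest of its condition in all 4. The 6 cultures with LPS averaged 18.8 ± 2.75% and the 6 without it 27.8 ± 3.05% (SD), a difference of −8.97 percentage points (exact permutation test within semagacestat level, two-sided, p = 0.01). The difference was −9.31 points in library 1 and −8.58 points in library 2. Permuting within the replicate number, the exact test gave p = 0.03125, the smallest it can give. The LPS cultures also held deeper cells, with a median of 31323 UMIs per low-share cell against 28572 in Ctrl cultures, and the part of depth in the shares was not tested. For semagacestat the averages were 23.6 ± 5.36% with it and 23.0 ± 6.01% without it (n = 6 each), a difference of 0.64 points (exact permutation test within LPS level, two-sided, p = 0.72). Cells over 20% made up 3.74 to 9.55% of a culture.

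**Figure D1:**
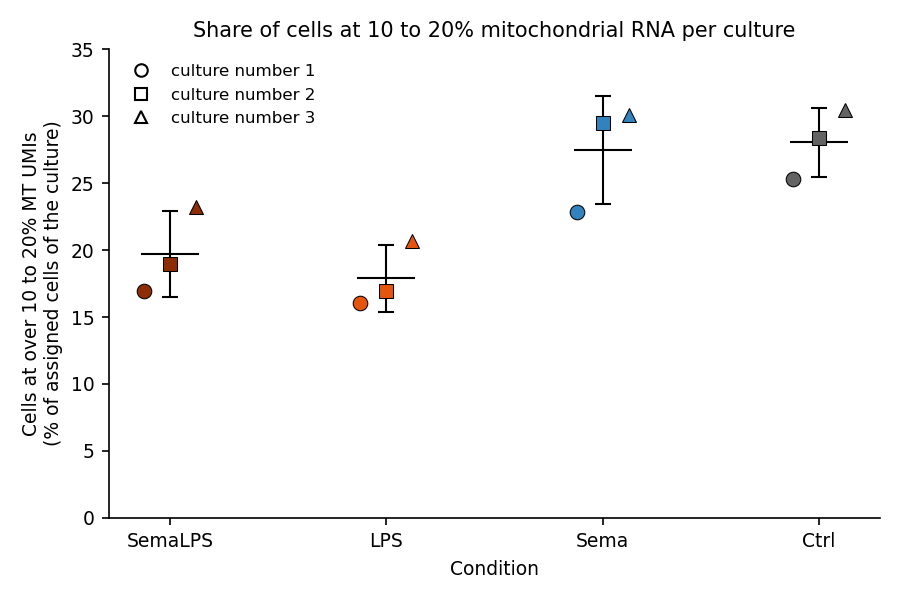
Percent of cells with over 10 to 20% mitochondrial UMIs in each of the 12 cultures, by condition, with the condition mean and SD as bar and whisker. The LPS cultures lie between 16.0 and 20.7% and the Ctrl cultures between 25.3 and 30.5%, without overlap.

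The MT- genes were not raised in equal proportion. Of all MT- UMIs, the complex I gene MT-ND2 took 4.77 ± 0.147% in high-share cells and 4.28 ± 0.114% in low-share cells (SD, n = 12 cultures), and MT-ND4, of the same complex, took 7.20 ± 0.126 and 6.58 ± 0.0875%. The cytochrome c oxidase genes MT-CO1 and MT-CO3 took smaller parts, at 20.6 ± 0.317 against 21.5 ± 0.233% and 17.1 ± 0.246 against 18.0 ± 0.208%. MT-ND1, MT-ND2, MT-ND3, MT-ND4, MT-ATP6 and MT-CYB had the larger part in high-share cells in 12 of 12 cultures. MT-CO1, MT-CO2, MT-CO3 and MT-ND4L had the smaller part in 12 of 12. The part was higher in 7 cultures for MT-ND5, 2 for MT-ATP8 and 1 for MT-ND6. These genes entered the rule and the values are descriptive.

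At equal depth, high-share cells showed slightly more genes. With each cell thinned to 5000 UMIs outside the MT- genes, 1975 ± 54.4 genes were detected per high-share cell and 1918 ± 53.3 per low-share cell (SD over 12 cultures). The difference within a culture was 56.8 genes on average, between 37.4 and 70.3, and high-share cells had more in 12 of 12 cultures (exact sign-flip permutation test, two-sided, p = 0.000488, the smallest it can give). The thinning left out 28 high-share and 126 low-share cells. Before thinning, the medians were 4970 ± 79.1 and 5022 ± 54.1 genes per cell.

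Expression of genes outside the mitochondrial genome was compared within culture on UMIs summed per culture and class. With the culture as a block in edgeR (quasi-likelihood test, p adjusted by Benjamini-Hochberg at 0.05), 4316 of 15569 genes were higher in high-share cells (27.7%) and 4269 were lower (27.4%). Most differences were small. Over 1.5-fold, 560 genes were higher and 231 lower, and over 2-fold, 157 and 32. With total-count scaling in place of TMM (trimmed mean of M-values), the median gene moved from 0.02 to 0.13 on the log2 scale, and 6998 genes were higher and 2565 lower. The gene lists are therefore read against these shares of all genes, and a direction that the other scaling turns is given beside its list. Log2 fold changes are high-share over low-share cells. CPM of single genes and of gene lists below are also scaled by TMM. Their ranges, overlaps and counts of cultures depend on that scaling. The TMM factor was larger for high-share cells in each culture, such as 1.121 against 1.0306 in Ctrl-2. Sums of cell type markers and values in bins of the share keep the common total alone.

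Nuclear genes of the respiratory chain were lower in the cells whose mitochondrial genes were high. Of 78 nuclear genes of the respiratory complexes and ATP synthase, 75 were lower and 3 higher, and 71 were lower in 12 of 12 cultures. In the median culture they summed to 21329 TMM-scaled CPM in high-share cells and 24713 in low-share cells. By complex, 35 of 36 complex I genes were lower (median log2 fold change −0.24), 22 of 24 genes of complexes II to IV (−0.21) and 18 of 18 ATP synthase genes (−0.23). NDUFB2, an accessory subunit of complex I, ranged from 351 to 449 CPM over the high-share cells of the cultures (median 391) and from 455 to 545 CPM over the low-share cells (median 493). The ranges did not overlap, and the log2 fold change was −0.33 (SE 0.013, adjusted p = 1.1e-16). CYCS, cytochrome c, was at 192, 262 and 377 CPM (lowest, median, highest culture) in high-share cells and 241, 342 and 469 CPM in low-share cells, lower in each culture though the ranges overlapped (log2 fold change −0.35). ATP5MC3, part of the c-ring of ATP synthase, stood at 507, 571 and 647 CPM against 674, 710 and 769 CPM, without overlap. The 3 genes that were higher were NDUFS1, the iron-sulfur core subunit (log2 fold change 0.11), SDHA, the flavoprotein of complex II (0.06), and UQCRC1 of complex III (0.04). With total-count scaling 64 of the 78 were lower and 5 higher.

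Nuclear genes that express and maintain the mitochondrial genome or its membrane followed the same direction, with exceptions. Of 24 genes of mitochondrial gene expression 19 were lower and 2 higher. SLIRP, a stabilizer of mitochondrial messenger RNA, stood at 118, 142 and 165 CPM in high-share cells and 156, 190 and 225 CPM in low-share cells (lowest, median and highest culture), lower in each culture, with a log2 fold change of −0.42 (SE 0.015). The 2 that were higher were POLG, the mitochondrial DNA polymerase (0.15), and POLRMT, the RNA polymerase that transcribes the mitochondrial genome (0.20). Of 26 tested genes of import, dynamics and mitophagy 16 were lower, among them the outer-membrane channel gene VDAC1 (−0.28) and the import receptor gene TOMM22 (−0.36), and 3 were higher: MFN2, which fuses outer membranes, PINK1, a kinase that marks damaged mitochondria, and PPARGC1B, a coactivator of mitochondrial genes. The matrix chaperone genes HSPD1 and HSPE1, which stand in the list of the integrated and mitochondrial stress responses, were lower, at −0.38 and −0.43. In that list 10 of 18 tested genes were lower and 2 higher: SESN2 (0.26) and GDF15, a secreted stress factor (0.57, from a level near 1.31 CPM).

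The MTRNR2L genes, nuclear copies that resemble the mitochondrial 16S ribosomal RNA, were higher in 5 of 7 tested cases (median log2 fold change 0.52), and MTRNR2L3 (0.38) and MTRNR2L6 (0.21) did not pass the test. MTRNR2L12 stood at 303 CPM in the median culture in high-share cells and 245 CPM in low-share cells. Their sequence is nearly that of the mitochondrial gene, so that the origin of these counts is uncertain.

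Ribosomal protein and proteasome genes were lower as whole groups. All 78 tested genes of the cytosolic ribosome were lower in high-share cells, each in 12 of 12 cultures, with a median log2 fold change of −0.29. In the median culture they summed to 154040 TMM-scaled CPM in high-share cells and 187140 in low-share cells. RPS26 of the small subunit stood at 493, 562 and 643 CPM (lowest, median and highest culture) in high-share cells against 681, 761 and 897 CPM in low-share cells, without overlap (log2 fold change −0.45, SE 0.011). All 25 proteasome genes were lower, each in 12 of 12 cultures (median −0.32). PSMA3, an α subunit of the core particle, stood at 119, 162 and 220 CPM in high-share cells against 153, 217 and 283 CPM in low-share cells. With total-count scaling 77 of 78 ribosomal genes and 24 of 25 proteasome genes were lower.

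The abundant nuclear-retained RNAs were raised, and their sum climbed with the share. MALAT1, a long noncoding RNA of nuclear speckles, stood at 18257, 21404 and 26622 CPM (lowest, median and highest culture) in high-share cells and 13353, 16884 and 19289 CPM in low-share cells. It was higher in 12 of 12 cultures, with overlapping ranges (log2 fold change 0.40, SE 0.011). NEAT1, the scaffold of paraspeckles, stood at 1898, 2573 and 3422 CPM against 1285, 1835 and 2475 CPM (0.50, SE 0.014). Of 8 genes in the list 4 were higher, MALAT1, NEAT1, MIAT and NORAD, although NORAD is largely cytoplasmic, and 2 were lower, the short-lived host transcripts GAS5 and SNHG15. KCNQ1OT1 and SNHG1 did not pass the test. The list summed to 24679 CPM in high-share cells (mean of cultures), most of it MALAT1, so that the sum mainly follows that gene. Relative to the cells of the same culture at 7.5 to 10%, the summed list was higher by 0.36 (log2, mean of 12 cultures) at 10 to 12.5%, 0.64 at 12.5 to 15%, 0.87 at 15 to 20%, 1.65 at 20 to 30% and 3.24 above 30%. The ribosomal genes stood at −0.14, −0.22, −0.32, −0.58 and −1.76 in the same bins, and the nuclear respiratory genes at −0.08, −0.10, −0.16, −0.44 and −1.34. Depth per cell fell over the same bins. With every cell thinned to 5000 UMIs the test gave 4 nuclear-retained RNAs higher and 2 lower, and 78 of 78 ribosomal genes lower.

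Lysosomal genes were raised. Of 24 genes 19 were higher and 2 lower (median log2 fold change 0.16), and 13 were higher in 12 of 12 cultures. LIPA, the lysosomal acid lipase, stood at 691, 790 and 917 CPM (lowest, median and highest culture) in high-share cells against 417, 565 and 668 CPM in low-share cells. The ranges did not overlap, and the log2 fold change was 0.51 (SE 0.018, adjusted p = 4.5e-17). CTSB, cathepsin B, stood at 762, 836 and 976 CPM in high-share cells against 614, 700 and 804 CPM in low-share cells (log2 fold change 0.27). The 2 that were lower were NPC2, a cholesterol carrier, and CTSH, cathepsin H. Unlike the nuclear-retained RNAs, the lysosomal sum stood at 0.19, 0.28, 0.33, 0.38 and −0.03 from 10 to 12.5% to above 30%.

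Microglial state genes divided. Of 22 disease-associated genes, a set that microglia raise around damage and lipid debris, 13 were higher and 4 lower. GPNMB, a glycoprotein of lipid-laden macrophages, stood at 233, 308 and 348 CPM (lowest, median and highest culture) in high-share cells and 129, 181 and 273 CPM in low-share cells, higher in 12 of 12 cultures, with a log2 fold change of 0.69 (SE 0.026). LPL, lipoprotein lipase, stood at 325, 523 and 635 CPM against 164, 348 and 515 CPM (0.59, SE 0.025). APOE (0.11) and TREM2 (0.05) differed by less, and the lower 4 were SPP1, CD63, B2M and TYROBP. CTSB, CTSD, CTSL and LIPA stand in the lysosomal list as well. Of 22 homeostatic genes 11 were lower and 6 higher. CX3CR1, the fractalkine receptor of resting microglia, stood at 33.8, 70.5 and 169 CPM against 50.8, 106 and 229 CPM, lower in 12 of 12 cultures with overlapping ranges (−0.62, SE 0.024), and P2RY12, the purinergic receptor, had a log2 fold change of −0.55. AIF1, which encodes IBA1, had −0.44. Among the 6 that were higher were ITGAM (0.43), PROS1, MERTK, CSF1R and MEF2A, which include receptors for clearance of cell debris and for M-CSF and IL-34.

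**Figure D2:**
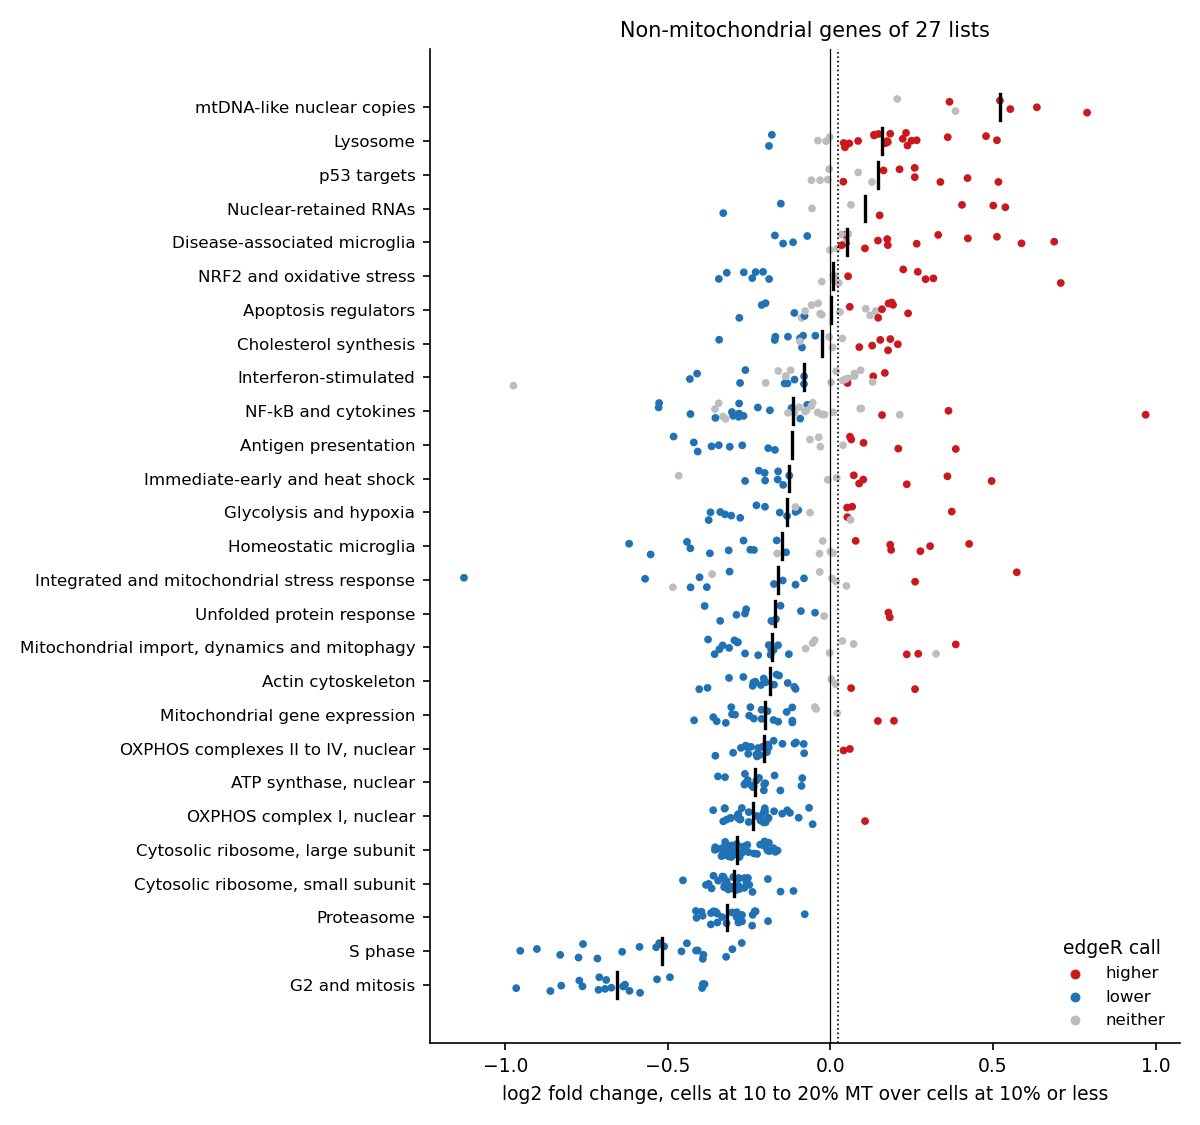
Log2 fold change of each tested gene in the gene lists, high-share over low-share cells, with the list median as a line. The 78 cytosolic ribosomal genes and the 25 proteasome genes lie below 0, and 19 of 24 lysosomal genes passed the test above 0.

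Inflammatory and antigen presentation genes were mostly lower where they passed the test. Of 36 NF-κB and cytokine genes 15 were lower and 3 higher. IL1B, which encodes the cytokine IL-1β, spanned 71.6, 633 and 1687 CPM (lowest, median and highest culture) in high-share cells and 107, 896 and 2667 CPM in low-share cells, a spread that follows LPS, and it was lower in 12 of 12 cultures (log2 fold change −0.53, SE 0.033). CCL2, a monocyte attractant, had −0.53 and CCL4 −0.43. The 3 that were higher were PTGS2, CXCL5 and ICAM1. Of 27 interferon-stimulated genes 9 were lower and 3 higher, and of 18 antigen presentation genes 9 were lower and 5 higher. HLA-DRA, a class II chain, stood at 70.9, 129 and 230 CPM against 111, 161 and 304 CPM (−0.41), and CD74, the class II invariant chain, had −0.27. With total-count scaling the splits were 7 higher and 10 lower for NF-κB and cytokines and 6 higher and 2 lower for the interferon list, so that the direction of the interferon list turned with the scaling.

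Genes of dividing cells were lower. All 20 S phase genes (median log2 fold change −0.52) and all 20 genes of G2 and mitosis (−0.66) were lower in high-share cells, 29 of these 40 in 12 of 12 cultures. GINS2, of the replicative helicase, stood at 5.39, 8.15 and 12.3 CPM (lowest, median and highest culture) against 8.80, 15.8 and 28.7 CPM (−0.95). NUSAP1, a spindle protein, stood at 20.6, 32.7 and 56.5 CPM against 32.7, 50.9 and 74.5 CPM (−0.71). Cells with at least 2 UMIs of the 8 proliferation markers, after thinning to 5000 UMIs, made up 15.8 ± 4.48% of high-share cells and 19.1 ± 5.40% of low-share cells (SD, n = 12), lower in 12 of 12 cultures. Without these cells 13 of the 20 S phase genes (median −0.22) and 7 of the 20 G2 and mitosis genes (−0.13) were lower. This limit on marker UMIs was chosen after the data were seen. The markers are genes of dividing cells, as are the genes of these lists. The smaller differences without the marker-positive cells therefore follow in part from the choice.

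Stress lists differed in direction. Of 14 targets of p53, the transcription factor that answers DNA damage, 8 were higher (median 0.15), and the other 6 did not pass the test and went no lower than −0.06. PHLDA3, an inhibitor of Akt, stood at 23.9, 28.3 and 32.8 CPM (lowest, median and highest culture) against 14.9, 19.3 and 24.6 CPM (log2 fold change 0.52, SE 0.031). ZMAT3, an RNA-binding protein, had 0.34, RRM2B, a ribonucleotide reductase subunit, 0.26, and BTG2, CDKN1A, SESN1, TP53INP1 and MDM2 were also higher. Of 22 apoptosis regulators 7 were higher and 5 lower, among them the inhibitor gene XIAP (0.19) and the effector gene BAX (−0.20). Of 17 immediate-early and heat shock genes 6 were higher, including ATF3 (0.50), JUN and EGR1, and 8 lower, including HSPA8 (−0.26). With total-count scaling that list's direction turned, to 7 higher and 5 lower. Of 14 genes of the unfolded protein response 11 were lower and 2 higher, EDEM1 and SEL1L. Of 18 NRF2 and oxidative stress genes 6 were higher, including the cystine transporter gene SLC7A11 (0.71) and HMOX1, heme oxygenase 1 (0.27), and 7 lower, including the peroxiredoxin gene PRDX1 (−0.24), a split of 11 higher and 7 lower with total-count scaling.

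Other lists were mixed or lower. Of 19 glycolysis and hypoxia genes 12 were lower, such as GAPDH (−0.31) and ENO1 (−0.32), and 4 higher, led by HK2, hexokinase 2 (0.37). Of 20 actin cytoskeleton genes 16 were lower and 2, GSN and LCP1, higher. PFN1, profilin, stood at 2126, 2617 and 3240 CPM (lowest, median and highest culture) against 2861, 3411 and 4042 CPM (−0.38, SE 0.010). Of 18 cholesterol synthesis genes 6 were higher and 8 lower. That list's split was 10 higher and 3 lower with total-count scaling.

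The 12 largest rises had log2 fold changes between 1.13 and 1.72. CHIT1, the macrophage chitinase chitotriosidase (chromosome 1, 203212827 to 203273641, minus strand, GRCh38), stood at 36.9, 53.3 and 76.5 CPM (lowest, median and highest culture) in high-share cells and 10.96, 16.0 and 25.6 CPM in low-share cells. The ranges did not overlap, and its log2 fold change of 1.72 (SE 0.065, adjusted p = 8.9e-17) was the highest among genes of at least 20 CPM that were higher in 12 of 12 cultures. TIMP3, an inhibitor of matrix metalloproteinases (chromosome 22, 32801701 to 32863043, plus strand), stood at 222, 318 and 470 CPM against 65.1, 110 and 260 CPM (1.29, SE 0.067). MMP7, a matrix metalloproteinase (chromosome 11, 102520508 to 102530753, minus strand), stood at 199, 478 and 1388 CPM against 80.2, 257 and 415 CPM (1.13, SE 0.12). DCSTAMP, needed for fusion of macrophages and osteoclasts, stood at 26.5, 45.2 and 55.4 CPM against 8.32, 15.9 and 35.6 CPM (1.36). The other 8 of the 12 largest rises were the long noncoding RNA LINC02244 (1.65), the prostaglandin D synthase gene PTGDS (1.63), the extracellular chaperone gene CLU (1.41), the microsomal glutathione transferase gene MGST1 (1.37), the collagen VI genes COL6A2 (1.27) and COL6A1 (1.25), the gluconeogenic enzyme gene FBP1 (1.26) and the chemokine gene CCL22 (1.15).

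Cells positive for a set that includes some of these genes were more frequent among high-share cells. TIMP3, FBP1 and MMP7 are 3 of the 12 rises, and were counted together with CRABP2. Cells with at least 2 UMIs of CRABP2, TIMP3, FBP1 and MMP7, after the same thinning, made up 26.2 ± 4.54% of high-share cells, between 19.9 and 33.9% per culture, and 13.1 ± 3.36% of low-share cells, between 7.62 and 17.0% (SD, n = 12). The share was higher in 12 of 12 cultures. Without these cells and the proliferation-marker cells, log2 fold changes were 0.99 for DCSTAMP, 0.91 for COL6A1, 0.78 for CHIT1, 0.50 for CLU, 0.27 for MGST1, 0.26 for MMP7, 0.20 for PTGDS and −0.03 for CCL22. GPNMB stood at 0.49 and LPL at 0.33. The disease-associated list then split into 8 higher and 9 lower, while 78 of 78 ribosomal genes and 25 of 25 proteasome genes were lower and 17 of 24 lysosomal genes higher. These exclusions were chosen after the data were seen. TIMP3, FBP1 and MMP7 both chose the cells and are among the rises. The higher frequency of such cells and the lower value of MMP7 without them therefore follow in part from the choice. The endothelial list was also higher in high-share cells, at 110 against 66.6 CPM in the median culture, carried by PECAM1, which macrophages share, while CDH5, KDR, TEK and CLDN5 fell under the filter on low counts. The monocyte list summed to 1067 against 1010 CPM, with the sum higher in 7 of 12 cultures, while 5 of its 7 tested genes were lower and 1 higher in high-share cells. The neural list summed to 34.0 against 27.8 CPM, T and NK cells to 19.8 against 24.5, fibroblasts to 8.83 against 5.18, pluripotent cells to 0.74 against 0.52 and proliferating cells to 283 against 369 CPM. These sums are medians of cultures. The fibroblast sum reached 53.4 CPM in the low-share cells of a culture, against at most 12.6 CPM in high-share cells. It was higher in high-share cells in 10 of 12 cultures. The part of these lists in the contrast was not tested.

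**Figure D3:**
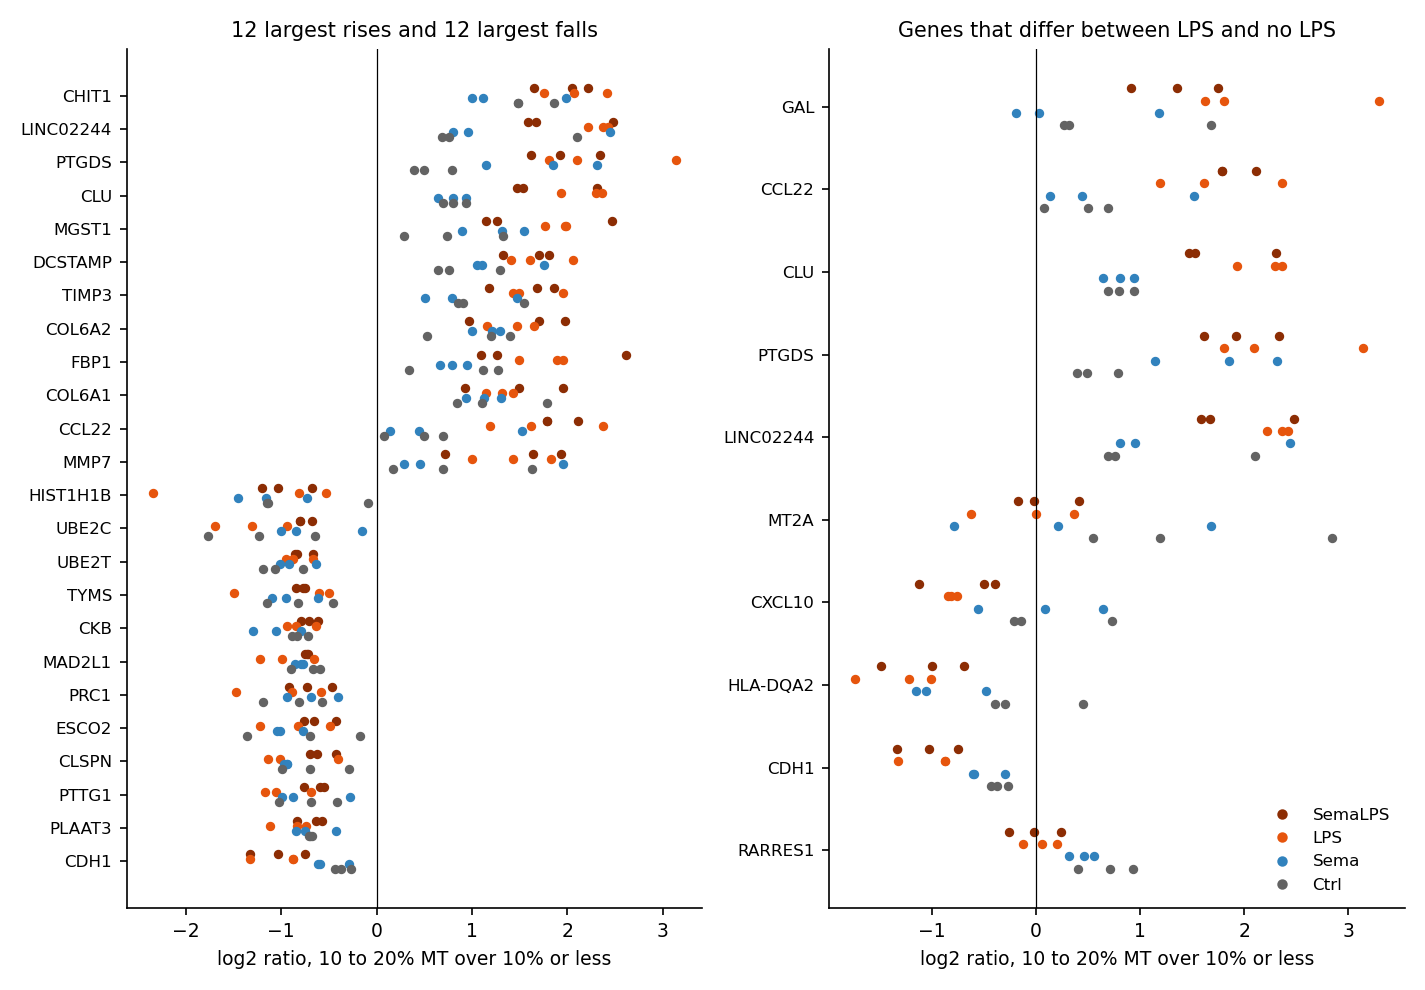
Log2 ratio of high-share to low-share cells in each of the 12 cultures, coloured by condition, for the 12 largest rises and falls (left) and the 10 genes with the largest interaction with LPS, 5 in each direction (right). CLU lies between 1.47 and 2.36 with LPS and between 0.64 and 0.94 without it.

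The 12 largest falls were mainly genes of dividing cells. They were the linker histone gene HIST1H1B (log2 fold change −0.99), the mitotic ubiquitin-conjugating enzyme gene UBE2C (−0.97), UBE2T of DNA crosslink repair (−0.87), the thymidylate synthase gene TYMS (−0.83), the spindle checkpoint gene MAD2L1 (−0.81), the spindle midzone gene PRC1 (−0.79), the cohesin acetyltransferase gene ESCO2 (−0.79), the replication checkpoint gene CLSPN (−0.76) and the securin gene PTTG1 (−0.75). The other 3 were the brain-type creatine kinase gene CKB (−0.83), the phospholipase gene PLAAT3 (−0.74) and the E-cadherin gene CDH1 (−0.73). UBE2C (chromosome 20, 45812576 to 45816957, plus strand) stood at 10.2, 22.5 and 43.9 CPM (lowest, median and highest culture) in high-share cells and 23.97, 40.4 and 62.5 CPM in low-share cells. CKB (chromosome 14, 103519659 to 103523111, minus strand) stood at 9.33, 16.5 and 30.2 CPM against 17.1, 33.0 and 49.4 CPM. The falls did not deepen with the share. The summed 12 falls stood at −0.61, −0.63 and −0.38 at 10 to 12.5, 12.5 to 15 and 15 to 20%, and the summed 12 rises at 1.06, 1.66 and 1.24, relative to cells at 7.5 to 10%.

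From the second shortest decile of transcript length to the longest, the percent of genes higher in high-share cells climbed and the percent lower declined. The shortest decile stood apart from that order. The median length of the longest spliced transcript (GENCODE v29, matched for 98.6% of tested genes) was 4466 nt for genes higher in high-share cells, 2560 nt for genes lower and 3223.5 nt for all tested genes. Of the 1536 genes in the longest decile of length, of 7228 nt or more, 808 (52.6%) were higher and 196 (12.8%) lower. Of the 1539 genes in the second shortest decile, of 1012 to 1706 nt, 193 (12.5%) were higher and 762 (49.5%) lower. Of the 1537 genes in the shortest decile, of 158 to 1010 nt, 237 (15.4%) were higher and 297 (19.3%) lower, with a median log2 fold change of 0.07. Across the 5656 genes with at least 20 CPM, length and log2 fold change had a Spearman correlation of 0.51. It was 0.50 without the ribosomal, respiratory and proteasome lists, 0.57 without both kinds of marker-positive cells, 0.51 with cells thinned to equal depth, and 0.45 in SemaLPS, 0.47 in LPS, 0.52 in Sema and 0.55 in Ctrl cultures. Over the 15358 tested genes with a length it was 0.19. These are correlations across genes of the same libraries, which are not independent replicates, and carry no p. The transcript in use in these cells was not measured.

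**Figure D4:**
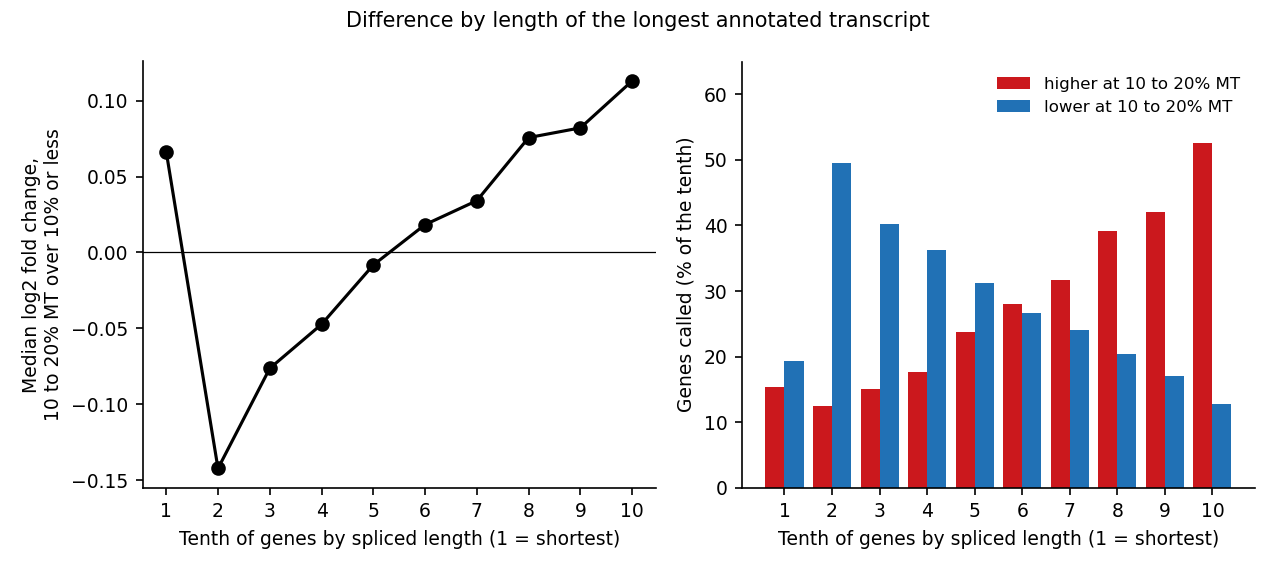
Median log2 fold change (left) and percent of tested genes higher and lower in high-share cells (right), by decile of transcript length from shortest to longest. In the longest decile 52.6% of genes were higher and 12.8% lower, and in the second shortest 12.5% were higher and 49.5% lower.

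MALAT1, NDUFB2, LIPA, CX3CR1 and CHIT1 each kept the same sign in the 4 conditions. The log2 fold change of MALAT1 was 0.40 in SemaLPS, 0.40 in LPS, 0.45 in Sema and 0.37 in Ctrl cultures, and that of NDUFB2 was −0.31, −0.34, −0.34 and −0.33 in the same order. LIPA had 0.61, 0.53, 0.52 and 0.39, and CX3CR1 −0.65, −0.76, −0.55 and −0.52. IL1B averaged 1406 ± 267 CPM in high-share and 2347 ± 278 CPM in low-share cells of LPS cultures (SD, n = 3), and 89.1 ± 20.4 and 127 ± 17.5 CPM in Ctrl cultures. The log2 fold change of CHIT1 was 1.95 in SemaLPS, 2.07 in LPS, 1.28 in Sema and 1.59 in Ctrl cultures.

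That contrast differed with LPS for 394 of 15569 genes (2.53%), of which 256 had the larger log2 ratio with LPS and 138 the smaller (edgeR quasi-likelihood interaction test, Benjamini-Hochberg adjustment). For CLU the ranges did not overlap. Its log2 ratio of high-share to low-share cells lay between 1.47 and 2.36 in the 6 cultures with LPS (median 2.11) and between 0.64 and 0.94 in the 6 without (median 0.80), with an interaction of 1.21 (SE 0.12, adjusted p = 2.8e-06). CCL22 had a median log2 ratio of 1.79 with LPS and 0.47 without (interaction 1.32), GAL, the neuropeptide galanin, 1.69 and 0.29 (1.37), and PTGDS 2.01 and 0.97 (1.03), and the ranges of these 3 overlapped. CDH1 had ratios between −1.33 and −0.75 with LPS and between −0.61 and −0.27 without (interaction −0.58), and RARRES1 ratios between −0.26 and 0.24 with LPS and between 0.32 and 0.94 without (−0.57). Of the disease-associated list 8 genes had a larger ratio with LPS and 1 a smaller, among them LPL (0.53) and GPNMB (0.28). The CLU interaction was 0.44 and missed the threshold with high-share cells at 15 to 20% (edgeR adjusted p = 0.537), as did those of CCL22 (0.84), PTGDS (0.53), GAL (0.39), CDH1 (−0.39) and RARRES1 (−0.59). The range of 15 to 20% held only 449 high-share cells, as few as 21 in a culture. In DESeq2's Wald test GAL had 1.24 (adjusted p = 0.067), and CLU and CCL22 were given no adjusted p. The count of 394 was 66 without the cells positive for CRABP2, TIMP3, FBP1 or MMP7, and fell to 233 to 259 when SemaLPS-2, LPS-2, Sema-3 or Ctrl-2 was left out.

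For semagacestat the same interaction called 0 of 15569 genes (0.0%) in edgeR's quasi-likelihood test, with a smallest adjusted p of 0.166, and DESeq2's Wald test called 0. At an unadjusted p under 0.05 there were 837 genes. This does not show that the contrast was the same with and without semagacestat.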

How the data were processed

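Single-cell RNA and hashtag UMIs were measured in 12 hashed cultures pooled into 2 libraries. As deposited, the matrices hold whole UMI counts for each barcode, gene and hashtag, not normalized, and per the file headers they come from Cell Ranger 6.0.1. Per the submitters' processing notes, hg38, Seurat 4.1.1 and Cell Ranger 3.0.2 were used. Which annotation release was used is not stated there. GENCODE v29 on GRCh38, used for positions and transcript lengths, holds 34616 (94.6%) of the 36601 gene IDs.

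Barcodes were kept with a top hashtag of at least 30 UMIs and 3 times the next, and 1000 or more genes. Doublets were removed by the hashtag ratio alone, so that pairs of cells from 1 culture remain. Counts of the 36588 genes outside the MT- genes were summed per culture and class, both libraries together. The sums were tested in R 4.3.3 by the quasi-likelihood test of edgeR 4.0.16 (TMM, filterByExpr, culture as block, class within condition, conditions weighted equally); standard errors are the log2 fold change over the square root of F, an approximation. Shares were tested by exact permutation over cultures (scipy 1.17.1). Scripts were tested on simulated data. Alternatives were DESeq2 1.42.0, other scalings, filters, libraries, limits, thinning and leaving out cultures.

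Same-numbered cultures deviated together in expression level. For genes of at least 20 CPM in a class, the log2 mean level of both classes was centred on its condition mean. Over the 18 pairs of cultures with the same number, correlations of these deviations across genes were 0.34 to 0.70. They were −0.52 to 0.16 over the 36 other pairs, which the centring itself pushes downwards. These correlations concern levels and do not describe the contrast between the classes. The pairing comes from the data, since no label states what the numbers mark. With the class effect free to differ by number as a replicate block, 4231 genes were higher and 4286 lower, and no named gene changed its call.

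The gene lists, the markers and the definition of the high-share cells were chosen with earlier results of these data known. Named genes are the 12 largest rises and falls past 0.05 with 20 CPM in a class and the same direction in 12 of 12 cultures, up to 3 per list by adjusted p, and the 5 largest per direction of each interaction; further list genes were named after their values were seen. Where the authors' counting could split reads among near-identical copies (the MTRNR2L, MT2A, HLA-DQA2 and histone genes), values are uncertain. Some genes chosen by the rule for named genes are not reported here.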

Additional observations from a re-analysis of the deposited data

Results flagged for a closer look

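For 10 genes the contrast between high-share and low-share cells differed between cultures with and without LPS by the interaction test (edgeR, log2, mean of SemaLPS and LPS minus mean of Sema and Ctrl). It was larger with LPS for GAL (1.37, adjusted p = 0.0025), CCL22 (1.32, adjusted p = 2.2e-04), CLU (1.21, adjusted p = 2.8e-06), PTGDS (1.03, adjusted p = 0.0021) and LINC02244 (0.97, adjusted p = 0.015). The signed log2 ratio of high-share to low-share cells was lower with LPS for MT2A (−1.01, adjusted p = 0.049), CXCL10 (−0.94, adjusted p = 0.025), HLA-DQA2 (−0.69, adjusted p = 0.047), CDH1 (−0.58, adjusted p = 4.7e-04) and RARRES1 (−0.57, adjusted p = 0.0033). For HLA-DQA2 and CDH1 this was a deeper fall by the median ratio. CXCL10 was lower in high-share cells with LPS, while without it the ratios lay on both sides of no difference, between −0.56 and 0.73. Median ratios of CXCL10, HLA-DQA2 and CDH1 were −0.79, −1.11 and −0.95 with LPS and −0.03, −0.43 and −0.41 without. For CLU, CDH1 and RARRES1 the 6 cultures with LPS did not overlap the 6 without.

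Leaving out 1 culture ended the call for 4 of these. MT2A passed in the full set and missed the threshold without SemaLPS-2, SemaLPS-3, LPS-2, LPS-3, Sema-2, Sema-3, Ctrl-1 or Ctrl-3, with log2 interactions between −1.28 and −0.70 over the 12 omissions. HLA-DQA2 missed it without SemaLPS-2, LPS-2, LPS-3, Sema-1, Sema-2, Sema-3 or Ctrl-2 (−0.78 to −0.54), LINC02244 without SemaLPS-3, Sema-2, Sema-3 or Ctrl-2 (0.78 to 1.16), and CXCL10 without Sema-3 or Ctrl-2 (−1.07 to −0.73). Without cells positive for CRABP2, TIMP3, FBP1 or MMP7 the interaction was 0.02 for GAL, and it turned its sign for CCL22 and PTGDS. That fit called 66 genes in place of 394.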

How the results depend on the processing

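Of 116 gene results over the 106 named genes, 90 kept their direction and their side of the threshold under each of 31 alternatives (30 for 3 results with no adjusted p in DESeq2), and 5 changed a call when a culture was left out. Genes higher in high-share cells (4316) numbered 6998 with total-count scaling, 2404 with cells thinned to 5000 UMIs and 1208 with high-share cells at 15 to 20%. Genes lower (4269) numbered 2565, 2516 and 3027 in the same order. Leaving out cultures gave 3948 to 4436 higher and 3967 to 4246 lower. The range of 15 to 20% held only 449 high-share cells, as few as 21 in a culture, so that fewer calls there need not mean a smaller contrast. At 15 to 20% the median gene stood at −0.13 (log2), the disease-associated list split into 7 higher and 6 lower, and the lysosomal list into 11 and 4.

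The interaction with LPS (394 genes) gave 220 in DESeq2 (which gave no adjusted p for 9357 genes, with CLU, CCL22 and LINC02244 among them). It gave 5 with no culture block, a fit that ignores the pairing of the classes within culture. It gave 62 in library 1, 150 in library 2, 261 with a stricter hashtag rule, 116 at 15 to 20% and 60 with thinning. Without CRABP2, TIMP3, FBP1 or MMP7 cells it gave 66, and without both kinds of marker cells 78. With a culture left out it gave 233 to 537 (233 without SemaLPS-2, 259 without LPS-2, 250 without Sema-3, 255 without Ctrl-2). The interaction with semagacestat (0 genes) gave 70 with no filter, 1 in library 2, 1 with the stricter hashtag rule, 17 at 15 to 20%, 2 with thinning, 6 and 5 without the marker cells, 3 with the replicate block by culture number, and 0 to 4 with a culture left out (4 without LPS-3 and without Ctrl-1). The cause was not tested. The marker-cell exclusions and the block by number were chosen after seeing the data.

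Reversed values were as follows. Without CRABP2, TIMP3, FBP1 or MMP7 cells the interaction with LPS was −0.0522 for PTGDS and −0.1611 for CCL22, and the contrast was −0.1442 for GAL. Without both kinds of marker cells the interaction was −0.1513 for PTGDS, −0.0053 for CCL22 and −0.0277 for GAL, and the contrast was −0.0290 for CCL22 and −0.1387 for GAL. CXCL10 had 0.194 at 15 to 20%. CXCL10 missed the threshold of the contrast without LPS-1, LPS-2, LPS-3, Sema-1, Sema-2, Ctrl-1 or Ctrl-3 (−0.37 to −0.19 over the omissions).

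The LPS difference in the share of high-share cells lay between −10.7 points with a lower limit of 8% and −2.75 points with a limit of 12%. The share itself changed with the limit. With and without LPS it was 55.6 and 66.3% at 8%, 18.8 and 27.8% at 10%, and 5.86 and 8.61% at 12%. Under the replicate block the exact permutation p was 0.03125 at −8.97 points. For semagacestat the replicate block gave p = 0.406 in the exact permutation test, and leaving out a culture gave −0.2334 (without SemaLPS-3) to 1.7992 points (without Sema-1). The fixed-depth difference in genes lay between 55.6 and 58.6 with a culture left out.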

Other observations

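Among genes raised in high-share cells, MALAT1, CHIT1, LYZ and ACP5 followed 2 shapes along the mitochondrial share. They are given as values with no test and were chosen after the values were seen. MALAT1 went on climbing outside the high-share range, at 21298 ± 1722 CPM in cells at 10 to 12.5%, 30735 ± 4687 CPM at 15 to 20% and 155910 ± 13101 CPM above 30% (SD, n = 12 cultures). CHIT1, the chitinase with the largest rise, did the same, at 48.9 ± 14.4, 92.1 ± 69.7 and 483 ± 239 CPM in the same bins, read from 5803, 709 and 3042 UMIs. LYZ, which encodes lysozyme, and ACP5, an acid phosphatase of osteoclasts and macrophages, instead peaked inside the range. LYZ stood at 260 ± 52.5 CPM at 10 to 12.5%, 417 ± 93.8 CPM at 12.5 to 15% and 107 ± 32.9 CPM above 30%, and ACP5 at 48.4 ± 13.1, 74.3 ± 34.1 and 34.4 ± 19.5 CPM. CX3CR1, lower in high-share cells, stood at 76.4 ± 43.9 CPM at 12.5 to 15% and 134 ± 69.4 CPM at 20 to 30%, against 121 ± 73.8 CPM at 7.5 to 10%.

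Among single markers of other myeloid states, LYZ was at 272 CPM in high-share and 165 CPM in low-share cells (log2 fold change 0.73, edgeR adjusted p = 9.3e-14), the mannose receptor gene MRC1 at 108 and 89.2 CPM (0.27), and the monocyte matrix gene VCAN at 5.43 and 9.59 CPM (−0.85).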
